A study of Mus musculus with 11 samples.

Results

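The microRNAs described here are the miR-200 family, mmu-miR-200a, mmu-miR-200b, mmu-miR-429, mmu-miR-200c and mmu-miR-141, together with mmu-miR-31. The miR-200 family is one of epithelial cells and in liver is mostly discussed for the bile ducts. All members were taken by name from the array's own annotation, as names without a star, which gave 6 of the 655 probes. The 5 miR-200 members come from a cluster on chromosome 4 and another on chromosome 6, so that the arrays allow a comparison of the clusters from mouse to mouse. Total RNA of whole livers from FVB/N mice aged 4 months, fed standard diet and fasted overnight, was measured on 11 Illumina microRNA arrays, each of 1 mouse, 5 of them WT and 6 LivPGC-1β. LivPGC-1β mice overexpress the transcriptional coactivator PGC-1β selectively in the liver, and the sources used here do not give the promoter of that transgene. The array has no probe for the transgene, so the genotype labels could not be checked by it, and neither the sex nor the litter of the mice is given. WT mice took the first 5 positions of the chip and LivPGC-1β mice the following 6, so genotype and chip position run together.

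A microRNA is cut from a hairpin precursor, and 1 arm of the hairpin, the guide, is loaded into Argonaute, while the partner, written with a star in the older names of this array, is mostly degraded. The guide finds its targets mainly through the seed, bases 2 to 8 from its 5′ end. The miR-200 family is best known for holding down Zeb1 and Zeb2, repressors of E-cadherin, and so for the epithelial state. In liver the family belongs to cholangiocytes, the epithelium of the bile ducts, which make up a small share of the tissue, far more than to hepatocytes. Mature miR-31 is found in several epithelia, among them skin and gut, but is also made outside them.

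The mature guide sequences from RefSeq (GRCm38.p6) show how closely the family members resemble each other, and which seeds the clusters share. The array's older names do not state the arm, and its table holds no probe sequence, so the arm was assigned from the names: the 3′ arm for the family and the 5′ arm for miR-31, with each star as the partner arm. The seed is in capitals.
mmu-miR-200b: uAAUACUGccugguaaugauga
mmu-miR-429: uAAUACUGucugguaaugccgu
mmu-miR-200c: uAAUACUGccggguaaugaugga
mmu-miR-200a: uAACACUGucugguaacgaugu
mmu-miR-141: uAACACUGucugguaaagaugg
mmu-miR-31: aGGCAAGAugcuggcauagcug
The seed AAUACUG is shared by mmu-miR-200b, mmu-miR-429 and mmu-miR-200c, and the seed AACACUG by mmu-miR-200a and mmu-miR-141. Each seed thus occurs in both clusters, and the 2 seeds differ at 1 base. Over the first 22 bases, mmu-miR-200a and mmu-miR-141 differ at 2 bases, as do mmu-miR-200b and mmu-miR-200c, so the closest pairs in sequence lie in different clusters. The sequence of mmu-miR-31 is unrelated and differs from the 5 others at 16 to 18 of the 22 bases.

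All hairpins lie on the minus strand. The chromosome 4 cluster spans 1846 bp, with Mir200b at chr4:156055681-156055750, Mir200a at chr4:156054896-156054985 and Mir429 at chr4:156053905-156053987, all inside the lncRNA gene Gm13648 in the RefSeq annotation. Its nearest protein-coding gene is Ttll10, 3087 bp from Mir429. The chromosome 6 cluster spans 477 bp, with Mir200c at chr6:124718322-124718390 and Mir141 at chr6:124717914-124717985, overlaps no other annotated gene and lies 968 bp from Phb2 at its nearer end. Mir31, at chr4:88910557-88910662 inside the lncRNA gene Gm49890, is 67143242 bp from Mir429 and belongs to neither cluster.

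All 6 guides were detected on all 11 arrays at the chip's detection p of 0.01 or less. Levels below are log2 quantile-normalized intensities, where 1 unit is a doubling, and they compare mice for 1 probe only, since probes differ in brightness. Before normalization the array medians were 1036, 866, 940, 743 and 807 in WT mice 1 to 5. In LivPGC-1β mice 1 to 6 they were 871, 619, 737, 743, 738 and 729, so array brightness ran partly with genotype. Its part in the genotype differences was not tested. None of the 6 differed between the genotypes at an adjusted p under 0.05 from limma, and none at an unadjusted p under 0.05. Among all 493 probes tested, 10 passed the adjusted threshold, which is 2.03%, and 62 had an unadjusted p under 0.05, which is 12.6%. Mean levels were higher in LivPGC-1β for 5 members and lower for 1, and the median difference over the 6 was 0.05 on the log2 scale, against 0.01 over all probes tested. In bulk RNA, fewer cells of a type and less RNA per cell cannot be told apart.

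**Figure D1:**
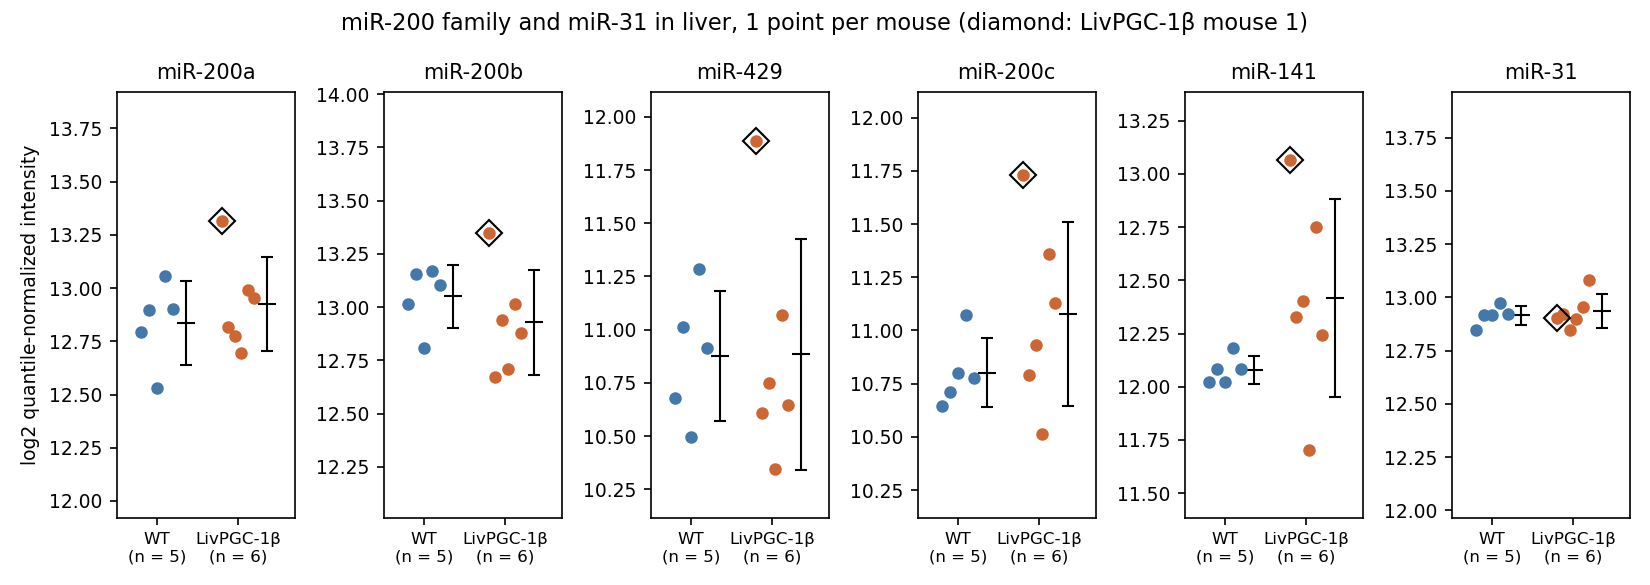
Level of each microRNA in each mouse, as log2 quantile-normalized intensity, with mean ± SD beside the points (5 WT and 6 LivPGC-1β mice). Every panel spans the same number of log2 units, and the diamond marks LivPGC-1β mouse 1, which is highest for the 5 miR-200 members and inside the WT range for miR-31.

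In the chromosome 4 cluster, mmu-miR-200a, of the AACACUG seed, was at 12.79, 12.90, 12.53, 13.06 and 12.90 in WT mice 1 to 5 and at 13.31, 12.82, 12.77, 12.69, 12.99 and 12.95 in LivPGC-1β mice 1 to 6. The groups overlapped, with only LivPGC-1β mouse 1 above the WT range. The means were 12.84 ± 0.20 (SD, n = 5) and 12.92 ± 0.22 (SD, n = 6), and the difference, LivPGC-1β minus WT, was 0.09 ± 0.12 (SE, 95% confidence interval -0.18 to 0.36, limma adjusted p = 0.784, exact permutation p = 0.528). It was 0.006 without LivPGC-1β mouse 1 and 0.010 without WT mouse 3.

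Its neighbour mmu-miR-200b, which shares the seed of miR-429 and miR-200c, was at 13.01, 13.16, 12.81, 13.17 and 13.10 in WT mice and at 13.35, 12.67, 12.94, 12.71, 13.01 and 12.88 in LivPGC-1β mice. LivPGC-1β mice 2 and 4 lay below all WT mice and mouse 1 above them. The difference of -0.12 ± 0.12 (SE, 95% confidence interval -0.39 to 0.14) had a limma adjusted p of 0.673 and an exact permutation p of 0.359. This was the only member with a lower mean in LivPGC-1β mice, and without mouse 1 the difference was -0.21 (limma adjusted p = 0.386).

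The last hairpin of that cluster gives mmu-miR-429, which was at 10.68, 11.01, 10.50, 11.29 and 10.91 in WT mice and at 11.89, 10.61, 10.75, 10.35, 11.07 and 10.65 in LivPGC-1β mice. The group means coincided at 10.88, with SDs of 0.30 and 0.54. The difference of 0.01 ± 0.26 (SE, limma adjusted p = 0.993) had a 95% confidence interval of -0.57 to 0.58. Differences of either sign inside this interval remain compatible with the data. Its sign rested on single mice, since it was -0.19 without LivPGC-1β mouse 1.

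On chromosome 6, mmu-miR-200c was at 10.65, 10.71, 10.80, 11.07 and 10.78 in WT mice and at 11.73, 10.79, 10.93, 10.51, 11.36 and 11.13 in LivPGC-1β mice. Of the 6 LivPGC-1β mice, 3 stood above every WT mouse and mouse 4 below every one. The means of 10.80 ± 0.16 (SD, n = 5) and 11.08 ± 0.43 (SD, n = 6) differed by 0.27 ± 0.19 (SE, 95% confidence interval -0.16 to 0.70, limma adjusted p = 0.573, exact permutation p = 0.208). The difference was 0.14 without LivPGC-1β mouse 1 and 0.09 without normalization.

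The WT values of mmu-miR-141, processed from the neighbouring hairpin, lay close together at 12.02, 12.08, 12.02, 12.18 and 12.08, and the LivPGC-1β values were 13.07, 12.33, 12.40, 11.70, 12.75 and 12.24. At these normalized levels all LivPGC-1β mice were thus outside the WT range, 5 above it and mouse 4 below it. In deposited intensities this did not hold. WT mice ran from 4448 to 4965, and LivPGC-1β mice 1 to 6 were at 9575, 4007, 5103, 2945, 6213 and 4708. There mouse 6 lay inside the WT range, and mice 2 and 4 below it. The means were 12.08 ± 0.07 (SD, n = 5) and 12.42 ± 0.47 (SD, n = 6), and the difference of 0.34 ± 0.20 (SE, 95% confidence interval -0.11 to 0.78) did not pass the test (limma adjusted p = 0.495, exact permutation p = 0.160, with 0.00433 the smallest two-sided p this design allows). The difference was 0.21 without LivPGC-1β mouse 1, 0.11 without normalization and 0.65 with chip position as a covariate (limma adjusted p = 0.682).

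By contrast, mmu-miR-31 hardly varied, at 12.85, 12.92, 12.92, 12.97 and 12.92 in WT mice and at 12.90, 12.92, 12.85, 12.90, 12.95 and 13.08 in LivPGC-1β mice. The groups overlapped nearly fully, and the highest value was that of LivPGC-1β mouse 6. The difference was 0.02 ± 0.04 (SE, 95% confidence interval -0.08 to 0.11, limma adjusted p = 0.901), the narrowest interval of the 6 members.

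**Figure D2:**
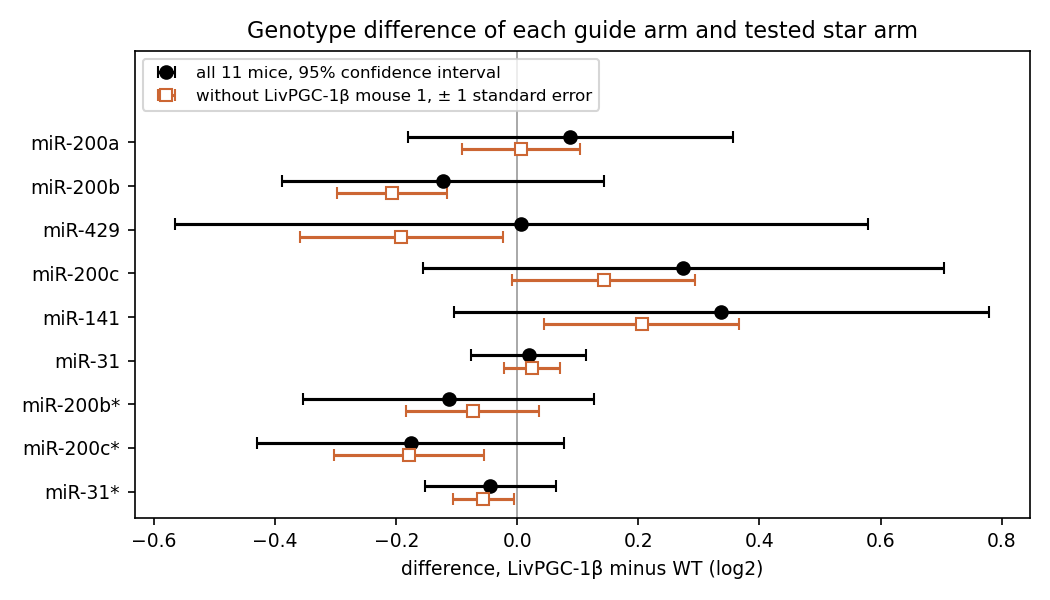
Difference between LivPGC-1β and WT means on the log2 scale for the 6 guides and the 3 star arms that were tested, with the 95% confidence interval from limma over 11 mice, and the same difference without LivPGC-1β mouse 1 with 1 standard error. All 95% intervals include 0, and the differences of the 2 chromosome 6 guides, 0.27 and 0.34, shrink to 0.14 and 0.21 without that mouse.

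Spread between mice set the members apart. Over the 11 arrays the SD was 0.43 for mmu-miR-429, 0.38 for mmu-miR-141 and 0.35 for mmu-miR-200c, more than in 90.1%, 84.6% and 82.6% of tested probes. For mmu-miR-200b and mmu-miR-200a it was 0.21 and 0.20, with 62.9% and 62.7% of probes steadier. For mmu-miR-31 it was 0.06, with only 14.8% of probes steadier.

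The highest values of the family belonged to 1 mouse. LivPGC-1β mouse 1 had the highest value of all 11 mice for each of the 5 miR-200 members, above the next mouse by 0.18 for mmu-miR-200b, 0.25 for mmu-miR-200a, 0.31 for mmu-miR-141, 0.37 for mmu-miR-200c and 0.60 for mmu-miR-429, the last being 1.52-fold. The deposited intensities, before any normalization, showed the same mouse at 9575 for mmu-miR-141 against 2945 to 6213 in the other mice, and at 4222 for mmu-miR-429 against 1143 to 2340. Its deposited mmu-miR-31 intensity, 8434, was second to the 8859 of LivPGC-1β mouse 6, while after normalization its level of 12.90 lay inside the WT range.

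On that array 11 probes stood over 0.25 log2 units above every other array, against 0 to 28 on the other 10 arrays, and 4 of the 11 were miR-200 members. The others were let-7f*, miR-155, miR-181c, miR-205, miR-218, miR-375 and miR-802. Of the 6 further epithelial microRNAs listed for comparison, miR-375, known from pancreatic islets and several epithelia, was at 10.79 in this mouse and between 9.29 and 9.77 in all others, and miR-205, of stratified epithelia, was at 9.91 against 8.67 to 9.38. The remaining 4, miR-203, miR-182, miR-183 and miR-96, were not highest in that mouse. Of the pancreas list, miR-216a was detected on no array. The level of miR-217, detected on only 3 arrays, was highest in that mouse, at 8.65 against at most 8.56 in the others. That of miR-216b was 8.93 in that mouse, the lowest of the LivPGC-1β values. The list's summed intensity, which includes miR-375, was 2924 there against 1773 to 2046 in WT mice. The summed intensities of the further epithelial, hepatocyte, mesenchymal and endothelial lists were also highest in this mouse, at 26460, 126900, 107400 and 68490. The highest WT sums of these lists were 24450, 125900, 104600 and 67580. In this mouse the median deviation of their members from the median over the arrays was only 0.07, 0.01, 0.05 and 0.05 log2 units. The leukocyte, erythroid and muscle sums were not highest there, at 72210, 47130 and 1868. The highest sums of those lists were 75850 in a LivPGC-1β mouse, and 51650 and 40700 in WT mice. The part of other cell types in the high miR-200 values of this mouse was not tested.

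To compare the clusters, each member was expressed as its deviation from its own median over the 11 arrays and averaged within its cluster. The chromosome 4 cluster deviated by -0.06, 0.14, -0.28, 0.29 and 0.09 in WT mice 1 to 5 and by 0.63, -0.19, -0.07, -0.30, 0.14 and -0.06 in LivPGC-1β mice 1 to 6. Its mean did not separate the genotypes, which gave 0.03 ± 0.21 (SD, n = 5) for WT and, for LivPGC-1β, 0.03 ± 0.33 (SD, n = 6). The chromosome 6 cluster deviated by -0.16, -0.10, -0.08, 0.14 and -0.06 in WT mice and by 0.91, 0.07, 0.17, -0.39, 0.56 and 0.19 in LivPGC-1β mice. It was at -0.05 ± 0.11 (SD, n = 5) and 0.25 ± 0.44 (SD, n = 6), with 4 of 6 LivPGC-1β mice above all WT mice. Without LivPGC-1β mouse 1 the gap in this cluster went from 0.31 to 0.18, and that in the chromosome 4 cluster from -0.01 to -0.13.

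The chromosome 6 deviation minus the chromosome 4 deviation was then taken in each mouse. It removes a shared change of equal size in both clusters, but not one of unequal size. This difference was -0.10, -0.23, 0.20, -0.15 and -0.15 in WT mice and 0.28, 0.25, 0.24, -0.08, 0.43 and 0.25 in LivPGC-1β mice. It was above every WT mouse in 5 of 6 LivPGC-1β mice, and mouse 4 lay within the WT range, whose upper end was WT mouse 3. The means were -0.09 ± 0.17 (SD, n = 5) and 0.23 ± 0.17 (SD, n = 6), a gap of 0.32, which was 0.31 without LivPGC-1β mouse 1. It lay between 0.28 and 0.34 under the other normalizations tried. It is given as a description with no test, as the members were chosen with results of these data known.

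**Figure D3:**
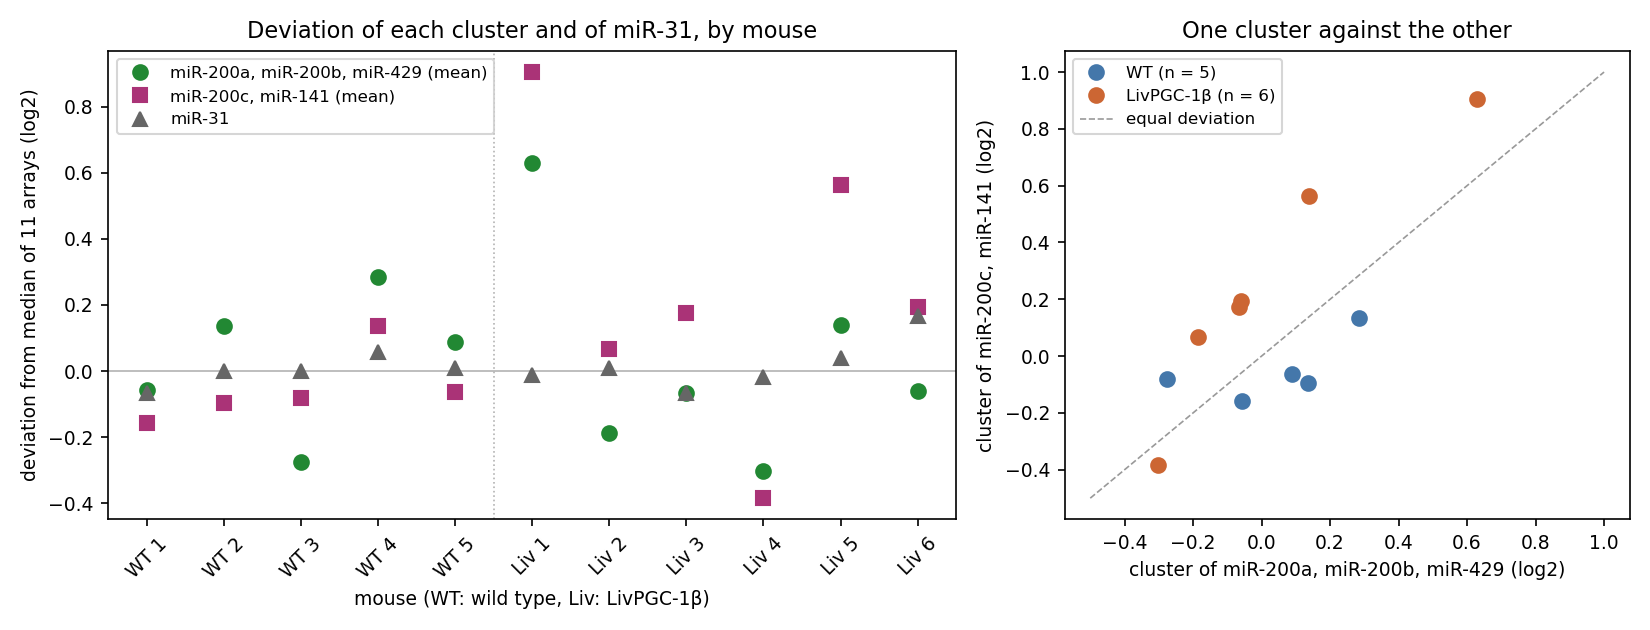
Left, mean deviation of each cluster and of miR-31 from the median of 11 arrays (log2), by mouse. Right, the chromosome 6 cluster against the chromosome 4 cluster, 1 point per mouse, with a dashed line of equal deviation: 5 of 6 LivPGC-1β mice lie above the line, 4 of 5 WT mice below it.

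Across the 11 arrays all 10 pairs within the miR-200 family had a Pearson r of at least 0.5, against 11.8% of the 120295 pairs that tested probes form. This r of 0.5 was chosen after the values were seen and lies just under the lowest family value, 0.52, so the contrast is a description only. Correlations were computed for all 15 pairs of the 6 members, with permutation p-values adjusted over the 15 by the Benjamini-Hochberg method. In the chromosome 6 cluster mmu-miR-200c and mmu-miR-141 reached r = 0.93 (rho = 0.84, permutation adjusted p = 0.00065 for r and 0.0116 for rho), a value that 0.213% of all pairs reach. In the chromosome 4 cluster r was 0.91 for mmu-miR-200a and mmu-miR-429 (rho = 0.84, permutation adjusted p = 0.00065 for r and 0.0116 for rho), 0.89 for mmu-miR-200b and mmu-miR-429 (rho = 0.92, permutation adjusted p = 0.00065 and 0.003) and 0.77 for mmu-miR-200a and mmu-miR-200b (rho = 0.72, permutation adjusted p = 0.0119 and 0.0588). The 4 pairs within a cluster thus had a median r of 0.90.

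The 6 pairs between the clusters had a median r of 0.76, from 0.52 for mmu-miR-200b with mmu-miR-141 to 0.81 for mmu-miR-429 with mmu-miR-200c. Of these 6, 4 passed the adjusted threshold with Pearson's r and 0 with Spearman's rho, which ranged from 0.30 to 0.68. A shared seed did not go with a higher value, since the median r between the clusters was 0.74 for the 3 pairs of the same seed and 0.77 for the 3 of different seeds. Without the 2 arrays farthest from the median, r of the 10 family pairs ranged from 0.26 to 0.91 and was at least 0.5 in 7.

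With the genotype means left in, the correlations between the clusters were weaker without LivPGC-1β mouse 1. Without this mouse the median r between the clusters was 0.49, with 0 of 6 pairs past the adjusted threshold, and within the clusters 0.83, with 3 of 4 past it. In all, 8 of 10 family pairs passed with 11 arrays and 3 with 10, the latter being mmu-miR-200a with mmu-miR-429, mmu-miR-200b with mmu-miR-429, and mmu-miR-200c with mmu-miR-141. Of the 10 family pairs 6 kept an r of at least 0.5 without it, beside 13.1% of all pairs of probes. With the genotype means subtracted, and mouse 1 kept, 10 of 10 pairs passed, and r of mmu-miR-200b with mmu-miR-141 went from 0.52 to 0.79 (permutation adjusted p = 0.0133). Among the 6 LivPGC-1β arrays, mouse 1 included, the median r was 0.94 within and 0.92 between the clusters. No r was computed for the 5 WT arrays or for the 5 LivPGC-1β arrays without mouse 1, since 6 arrays were set as the minimum. Genotype means were not subtracted with mouse 1 left out. The part of the genotype gap between the clusters in the weaker r without mouse 1 was therefore not tested.

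**Figure D4:**
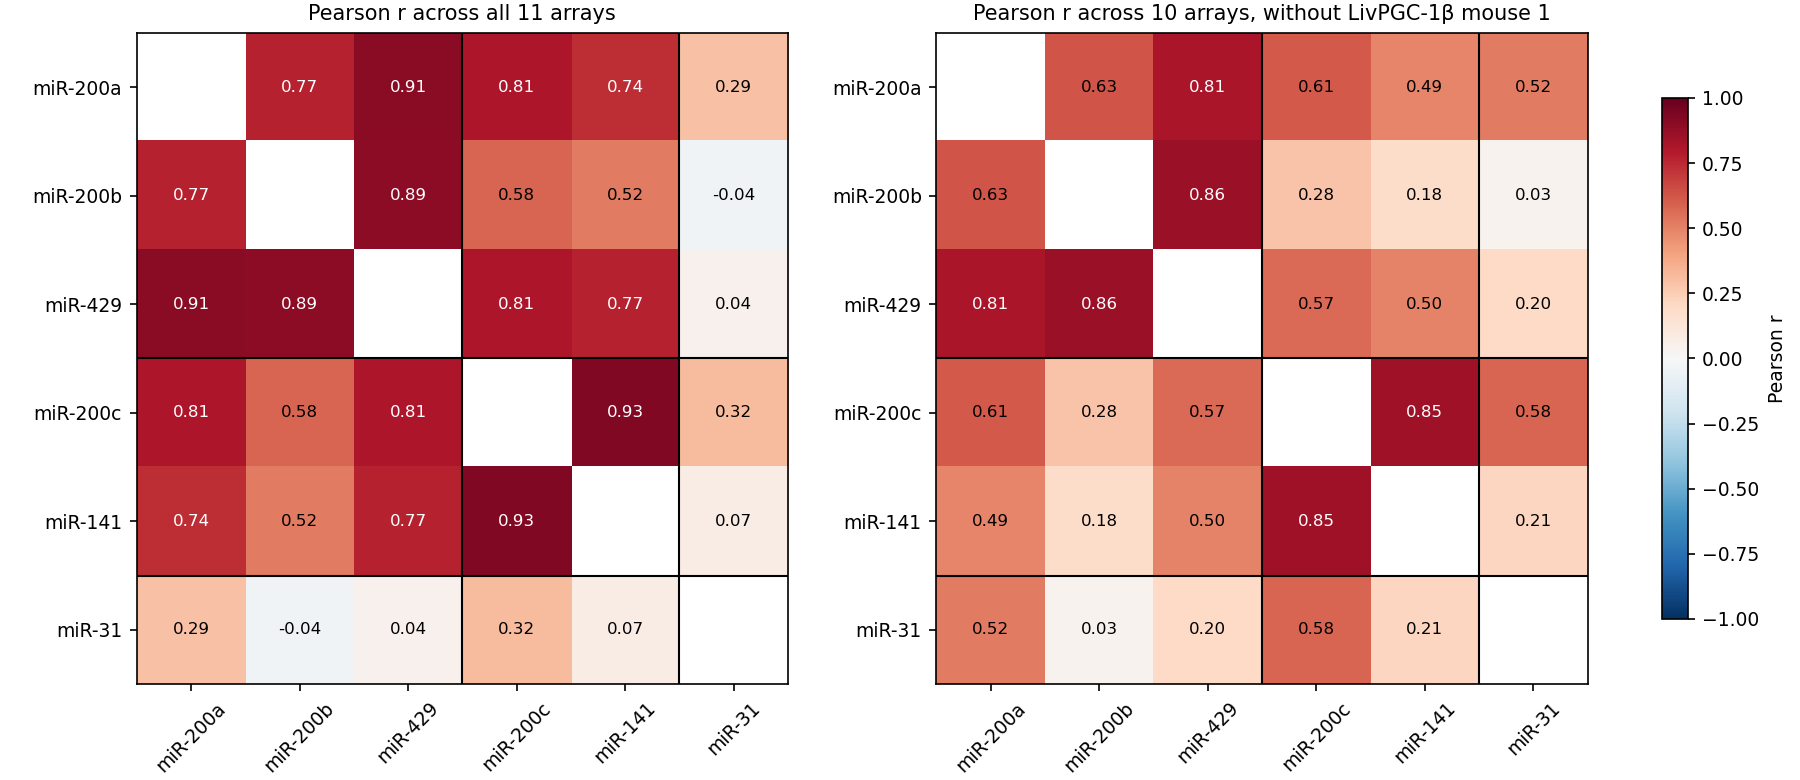
Pearson r of each pair of the 6 microRNAs across 11 arrays (left) and across 10 arrays without LivPGC-1β mouse 1 (right), on a colour scale from -1 to 1, with black lines between the chromosome 4 cluster, the chromosome 6 cluster and miR-31. Blocks within a cluster stay at 0.63 or more, whereas the block between the clusters falls to between 0.18 and 0.61.

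With the family, mmu-miR-31 had r between -0.04 and 0.32, and 0 of 5 pairs passed the adjusted threshold (0 with rho). Without LivPGC-1β mouse 1 they lay between 0.03 and 0.58, again with 0 past the threshold. These values depended on the normalization. On intensities as deposited, whose array medians ran from 619 to 1036, r was 0.79 with mmu-miR-200b and 0.78 with mmu-miR-200a (permutation adjusted p = 0.0053 for each). With each array scaled to a common median, r with mmu-miR-200a was 0.73 and still passed (permutation adjusted p = 0.0167), whereas that with mmu-miR-200b was 0.50 (permutation adjusted p = 0.146). For these settings the share of all probe pairs with a high r was not computed.

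The star arms of the same hairpins gave a further readout of each precursor. The array held 5 of them, none for miR-429, and 3 were detected on all 11 arrays, whereas mmu-miR-200a* was detected on 3 and mmu-miR-141* on 0, which left these unmeasured and untested. None of the 3 differed by genotype, at -0.11 ± 0.11 for mmu-miR-200b* (SE, limma adjusted p = 0.673), -0.18 ± 0.11 for mmu-miR-200c* (adjusted p = 0.529) and -0.04 ± 0.05 for mmu-miR-31* (adjusted p = 0.706). LivPGC-1β mouse 1, highest for the guides, was not high for the stars, lying 0.57 below the highest mouse for mmu-miR-200b* and 0.44 below it for mmu-miR-200c*. Both stars were highest in WT mice 2 and 1, at 10.99 and 10.91 for mmu-miR-200b* and at 9.29 and 9.26 for mmu-miR-200c*. Deposited intensities of mmu-miR-200c*, 359 to 783, were not far above the 228 to 298 of the undetected mmu-miR-141*, which limits what its profile can show.

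After quantile normalization, guide and star of 1 hairpin showed no correlation that passed the test, with r = 0.08 for miR-200b (rho = 0.12), -0.24 for miR-200c (rho = -0.23) and 0.50 for miR-31 (rho = 0.39), and permutation adjusted p for r of 0.808, 0.657 and 0.247 over 4 pairs. The pair of miR-31 passed without normalization (r = 0.88, permutation adjusted p = 0.00096) and with scaling to the array median (r = 0.81, permutation adjusted p = 0.0123). The fourth pair, the stars mmu-miR-200b* and mmu-miR-200c* from different chromosomes, had r = 0.77 (permutation adjusted p = 0.0216) and rho = 0.67 (adjusted p = 0.115). Without WT mice 1 and 2 its r was 0.36, so the relation rests on these mice. Without normalization r was higher for the other pairs as well, at 0.54 for miR-200b, 0.17 for miR-200c and 0.93 for the stars. The share of all probe pairs with a high r was computed only after quantile normalization.

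Outside the family, the probes whose profile over the 11 arrays was most like the chromosome 4 cluster, among the 485 compared, were miR-214* (r = 0.72), which is made next to miR-199a, miR-290-5p (r = 0.69), of an embryonic stem cell cluster and detected on 9 arrays, and miR-205 (r = 0.69). For the chromosome 6 cluster they were miR-136 (r = 0.83), of the imprinted Dlk1-Dio3 region, miR-181c (r = 0.78) and miR-205 (r = 0.77). Without LivPGC-1β mouse 1, miR-205 had r = 0.33 with the chromosome 4 cluster and 0.50 with the chromosome 6 cluster, while miR-290-5p had 0.92 and miR-136 had 0.80. For mmu-miR-31 they were miR-92a (r = 0.93) and miR-17* (r = 0.90), both from the miR-17 cluster, and miR-125b* (r = 0.88), with 0.94, 0.89 and 0.88 without that mouse. They were the highest of many values and are a description of likeness only.

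In the 8 lists of microRNAs of other cell types, 0 tested members passed the adjusted threshold, beside 2.03% of all probes tested. An unadjusted limma p under 0.05 was found for 2 of 7 mesenchymal, 2 of 6 leukocyte, 1 of 6 further epithelial and 1 of 8 hepatocyte members. It was found for 0 in the other lists, and for 12.6% of all probes tested. The median difference was 0.15 for the 6 tested epithelial microRNAs outside the family, -0.01 for 8 of hepatocytes, 0.05 for 7 mesenchymal ones, 0.02 for 3 endothelial ones, 0.06 for 6 of leukocytes, -0.02 for 3 erythroid ones, 0.07 for 2 of pancreas and -0.75 for 3 of muscle. The muscle sum ran from 1713 to 40700 in WT mice and from 1856 to 6228 in LivPGC-1β mice, and its part in the results was not tested. The hepatocyte microRNA miR-122 was between 14.70 and 14.73 on all arrays, a defining marker of the labelled tissue.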

How the data were processed

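Liver RNA of 11 mice, with RNA quality index above the study's limit, was read on 1 Illumina Universal MicroRNA BeadChip. The authors deposited the average bead intensity of 655 probes per array, exported from Genome Studio without normalization or background subtraction, and the values here start from that table. A detection p-value against the chip's negative controls was deposited by the authors beside each intensity. A second deposited table, quantile normalized by the authors, served as an alternative. Arrays of LivPGC-1α mice and the qPCR were not analysed here.

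Intensities were quantile normalized over 655 probes and converted to log2. The 493 probes detected at p of 0.01 or less by 5 arrays or more were tested with limma 3.58.1 in R 4.3.3, adjusted by Benjamini-Hochberg over the 493 at 0.05. Each member's difference was also tested by exact permutation of the mice, two-sided, and correlations were given a two-sided permutation test with 100000 resamples (Python 3.11.15, scipy 1.17.1). The limma fit and the correlation test were tried on simulated data. The number of arrays limits the precision. The p-values take the mice as independent, and labels do not say whether the mice of a group are litter mates.

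The members, the 8 lists of cell type microRNAs and the naming rule were chosen with earlier results of these data known. The rule named the 6 members, all their star arms, the 3 probes most correlated with each cluster and with miR-31, and list members that were called or stood over 1 log2 unit above the other arrays where a member stood out. Other list members, probes named as high in LivPGC-1β mouse 1, the r of 0.5, the step of 0.25 log2 and the 4 pairs with star arms were chosen after the values were seen. Quantile normalization equalizes the arrays and can narrow differences of the brightest probes. Alternatives were other normalizations, background correction, filters, variance models, a replicate block, chip position and leaving out each mouse. Replicate numbers of WT and LivPGC-1β mice do not pair them in the labels, and deviations of same-numbered mice correlated at -0.13 to 0.07.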

Additional observations from a re-analysis of the deposited data

How the results depend on the processing

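Of the 6 members, 0 were called under each alternative run. The number of probes called over the whole array, 10, was 0 without normalization, 4 with scaling to the array median, 0 with chip position as a covariate, and 4 to 13 with each mouse left out (4 without WT mouse 1, 5 without LivPGC-1β mouse 1 and 6 without LivPGC-1β mouse 3). With a replicate block it was 1, and the numbers do not pair the mice. The cause of these shifts was not tested. Without normalization the differences of mmu-miR-141 and mmu-miR-200c, 0.337 and 0.274, were 0.11 and 0.091, and with chip position that of mmu-miR-141 was 0.649. Small differences changed sign. Without normalization mmu-miR-200a was at -0.079, mmu-miR-429 at -0.212 and mmu-miR-31 at -0.112, and with cyclic loess mmu-miR-429 was at -0.045 and mmu-miR-31 at -0.013. With median scaling mmu-miR-200b was at 0.001, and mmu-miR-31 was at -0.01 with the replicate block and -0.125 with chip position. With each mouse left out, mmu-miR-429 ran from -0.192 to 0.116 and mmu-miR-31 from -0.01 to 0.037.

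The count of family pairs past the adjusted threshold, 8, was 3 to 9 with each mouse left out, and the median r between the clusters, 0.756, was 0.494 to 0.81, the lowest of both without LivPGC-1β mouse 1. The gap between the clusters' deviations, 0.315, was 0.273 to 0.393. Correlations with mmu-miR-31 changed. For mmu-miR-200a r passed the threshold without normalization (0.781) and with median scaling (0.726). For mmu-miR-200b r was 0.794 without normalization, 0.501 with median scaling, 0.02 with loess, 0.013 with genotype means removed and -0.123 to 0.16 with each mouse left out. With loess it was -0.085 for mmu-miR-429, -0.032 for mmu-miR-200c and -0.049 for mmu-miR-141, and with each mouse left out -0.046 to 0.316 for mmu-miR-429 and -0.005 to 0.214 for mmu-miR-141. For guide and star, r of miR-200b was -0.016 with genotype means removed and -0.102 to 0.476 with each mouse left out, r of miR-200c was 0.172 without normalization, and r of miR-31 was 0.876 without normalization and 0.805 with median scaling, where it passed the threshold. With 5 and 6 mice, all differences inside the 95% intervals given remain compatible with the data. The stars mmu-miR-200a* and mmu-miR-141* were too close to background to be measured.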
